A study of Homo sapiens with 12 samples.

Results

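The subunits examined here were 40 nuclear-encoded proteins of respiratory complexes II, III, IV and V together with cytochrome c. Membership was set by gene symbol, and all 40 were found among the 58671 gene rows of the table; 39 reached at least 1 FPKM (fragments per kilobase of transcript, scaled to library size) in some group. They comprised 4 subunits of complex II, 9 of complex III, cytochrome c, 11 of complex IV and 15 of complex V.

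Total RNA was sequenced from A549 cells, a human lung carcinoma line. The parental line (WT) and an RNase L knockout derived from it (RLKO) were each examined untreated and 6 h after transfection of 500 ng/ml poly(I:C), an artificial mimic of viral double-stranded RNA, giving 4 groups of 3 samples, 12 samples in all. The labels do not state how many knockout clones were used. External ERCC RNAs had been added to the RNA before rRNA was depleted.

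The respiratory chain, which lies in the inner mitochondrial membrane, passes electrons from nutrients to oxygen. Complex II takes electrons from succinate, complex III passes them to the small soluble carrier cytochrome c, and complex IV hands them to oxygen; complexes III and IV pump protons, and complex V (ATP synthase) lets the protons flow back and makes ATP. Nearly all subunits are read from nuclear genes and imported, a few core subunits of complexes III, IV and V are read from mitochondrial DNA, and RNase L is an endoribonuclease that double-stranded RNA switches on through the oligoadenylate synthetases and that cuts single-stranded RNA mainly after UA and UU.

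Many of these genes share promoter motifs, and 3 examples are printed because they cover the member with the largest fold in WT and the best-known patterns. The 250 bases before the RefSeq start site (build GRCh38.p14) are shown 5′ to 3′ on the gene's own strand, with exact matches to the GABP motif CCGGAAG and the NRF1 motif GCATGCGC in capitals. UQCRQ lies at chr5:132866392-132866641 (+), COX5B at chr2:97645812-97646061 (+) and CYCS at chr7:25125261-25125510 (-).
UQCRQ: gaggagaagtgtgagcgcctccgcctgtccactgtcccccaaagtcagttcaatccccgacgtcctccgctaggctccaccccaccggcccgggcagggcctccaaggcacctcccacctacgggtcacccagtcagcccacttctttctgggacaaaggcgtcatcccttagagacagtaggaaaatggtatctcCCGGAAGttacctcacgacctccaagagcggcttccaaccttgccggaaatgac
COX5B: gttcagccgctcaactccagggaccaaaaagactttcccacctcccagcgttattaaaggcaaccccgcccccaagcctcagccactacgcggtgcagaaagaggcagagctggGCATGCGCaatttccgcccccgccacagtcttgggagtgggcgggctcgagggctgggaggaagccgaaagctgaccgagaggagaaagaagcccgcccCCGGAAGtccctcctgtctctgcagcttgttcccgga
CYCS: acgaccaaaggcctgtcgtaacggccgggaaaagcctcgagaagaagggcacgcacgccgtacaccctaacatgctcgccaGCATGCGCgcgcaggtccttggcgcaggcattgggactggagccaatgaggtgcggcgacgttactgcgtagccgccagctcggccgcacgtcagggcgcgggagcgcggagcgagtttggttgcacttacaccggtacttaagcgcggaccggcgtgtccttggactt
Searching both strands, 12 of the 32 members matched in the RefSeq table (37.5%) held CCGGAAG, against 10.2% of all 27305 genes in that table and 18.7% of the 9513 other protein-coding genes kept here. GCATGCGC was held by 9 of 32 (28.1%), against 3.22% and 5.72%. Both motifs were present in ATP5PF, COX5B, COX6A1, SDHB and SDHD, and 16 members held at least 1. GCATGCGC can overlap its own reverse complement, CCGGAAG and GCATGCGC can share 1 base, and a match is a description of the letters, not evidence of binding. In UQCRQ the GABP match began at position -54 from the start site, in COX5B the GABP and NRF1 matches began at -37 and -136, and in CYCS the NRF1 match began at -169. The GABP and NRF1 transcripts themselves did not pass the test in either line: NRF1 stood at 11.1 FPKM in untreated and 12.1 FPKM in treated WT cells, GABPA at 3.15 and 1.81 FPKM and GABPB1 at 25.5 and 26.7 FPKM. None of the 9 measured regulators of the respiratory chain, which also included TFAM and TFB2M, the mitochondrial transcription factors, passed the authors' q under 0.05 in WT. The FPKM given here are as deposited, and in them 5 of these 9 regulators were lower in treated WT. On the spike-in scale, defined in the next paragraph, 8 of the 9 had a WT change below 0. Their median WT change on the spike-in scale was -0.92, against -0.70 over all kept protein-coding rows. TFB2M, at 44.3 and 16.9 FPKM, had p = 0.0147 and q = 0.117 in the authors' deposited table.

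The table gives 1 pooled value per group, so no spread between samples can be computed, and the authors' p-values and q-values compare poly(I:C) with untreated cells within each line only. Changes are given on the spike-in scale, log2(value + 1) after dividing each group by its ERCC factor; these factors lowered WT changes by 0.61 and RLKO changes by 0.18 relative to FPKM as deposited. The scale cannot tell fewer cells from less RNA per cell. Keratins KRT7, KRT8 and KRT18 stood between 256 and 1748 FPKM in every group. KRT19 stood at 14.4 FPKM in untreated and 6.64 FPKM in treated WT, and at 54.0 and 46.3 FPKM in RLKO. CDH1 lay between 2.93 and 4.52 FPKM and EPCAM between 0.558 and 1.03 FPKM. PTPRC, CD3E, MS4A1, PECAM1, CDH5, HBB, HBA1, COL3A1 and DCN stayed at or below 0.530 FPKM. CD68, also found in lysosomes of many cells, stood between 15.9 and 24.1 FPKM and COL1A1 between 2.06 and 7.17 FPKM.

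Poly(I:C) was followed by lower levels of all 39 measured subunits in WT. Of all 12181 kept protein-coding rows, 7094 were lower in WT in FPKM as deposited and 9548 on the spike-in scale. By q under 0.05 in the authors' deposited table, 12 of 39 fell and 0 rose; the percentage of all 12181 kept protein-coding rows that fell by the same rule was 3.09. At an unadjusted p under 0.05, 32 of 39 were lower in WT, against 12.1% of protein-coding rows. In RLKO 0 of 39 fell and 0 rose by Cuffdiff's q, against 0.0246% of protein-coding rows that fell, and at an unadjusted p under 0.05 there were 8 lower and 0 higher, against 1.86% lower.

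The median change of the 39 subunits was -3.01 in WT, with an interquartile range of -3.42 to -2.58. It was -1.19 in RLKO, where single subunits lay between -1.63 and 0.23. The medians over all protein-coding rows were -0.70 and -0.24. The WT change was lower than the RLKO change for every one of the 39, from -2.62 for UQCR11 to -0.81 for ATP5MF, with a median of -1.94 against -0.47 over all protein-coding rows. Of those rows, 8926 of 12181 had a lower change in WT than in RLKO. No test of this difference between the lines exists in pooled values.

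In untreated WT the subunits stood between 41.2 FPKM for SDHA and 2120 FPKM for COX7C, and their share of all protein-coding FPKM was 2.72%. After poly(I:C) that share was 0.943% in WT. In RLKO it was 2.32% before and 1.60% after. Of the 39 subunits, 29 lay in the top 5% of protein-coding rows in untreated WT and 14 in treated WT, against 24 and 22 in RLKO.

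**Figure D1:**
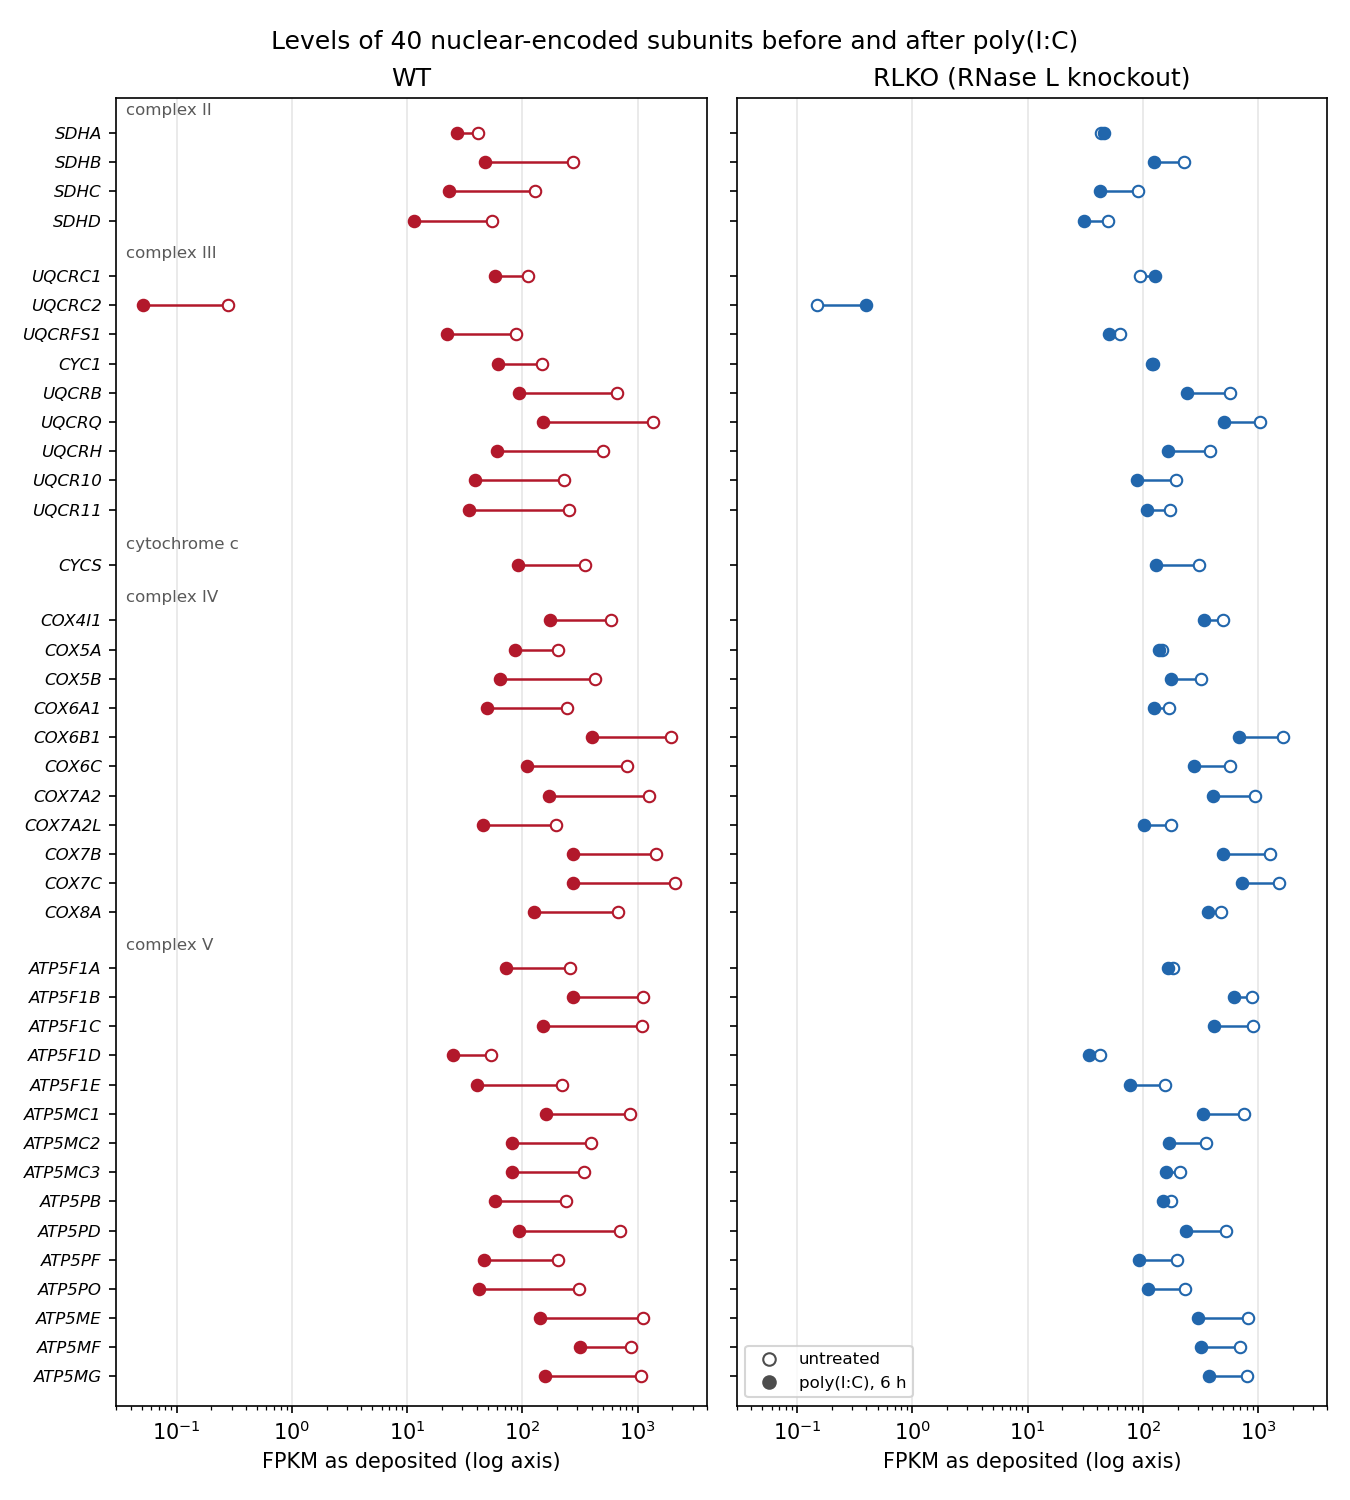
FPKM of the 40 subunits as deposited, 1 pooled value per group on a log axis, with WT in the left panel and RLKO in the right, open circles untreated and filled circles 6 h after poly(I:C). All 39 measured subunits were lower after treatment in WT, SDHA and UQCRC1 were higher after treatment in RLKO, and UQCRC2 lay under 1 FPKM in every group.

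The lines also differed before treatment. On the spike-in scale the subunits were higher in untreated WT than in untreated RLKO for 39 of 39, with a median difference of 0.66 against 0.24 over all protein-coding rows. Of those 12181 rows, 2635 were lower in untreated WT. In FPKM as deposited 38 of 39 were higher in WT, and the median difference was 0.37 against -0.01. No test of this difference exists either. After poly(I:C) the order was the other way round: treated RLKO exceeded treated WT in FPKM for 39 of 39, by a median of 2.25-fold, from 1.02-fold for ATP5MF to 3.30-fold for UQCRQ. On the spike-in scale treated WT was lower than treated RLKO for 39 of 39 subunits and for 7828 of 12181 protein-coding rows. The median differences were -1.31 and -0.25. The order of subunits by level was nearly the same in the untreated lines (Pearson r = 0.994 over 39 genes).

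Complex II oxidises succinate and is wholly nuclear-encoded. Of its 4 subunits 1 fell in WT by q, with a median change of -2.90 in WT and -0.94 in RLKO. SDHB, the iron-sulphur subunit, stood at 276 FPKM in untreated WT, 47.4 in treated WT, 229 in untreated RLKO and 124 in treated RLKO, a 5.82-fold lower level in WT with q = 0.0274 in the authors' deposited table. SDHA, the flavoprotein that holds the succinate site, had the smallest WT change of all the subunits, -1.17: its levels were 41.2 and 27.3 FPKM in WT and 43.4 and 45.6 FPKM in RLKO, with q = 0.491 in WT in the authors' deposited table. Its treated WT level was 1.51-fold lower and its RLKO levels lay close together. The membrane anchors SDHC, at 130 and 23.0 FPKM in WT, and SDHD, at 54.6 and 11.4 FPKM in WT, had q = 0.0658 and 0.131 in the authors' deposited table.

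The nuclear-encoded core subunits of complex III are UQCRC1, UQCRC2, the cytochrome c1 subunit CYC1 and the Rieske iron-sulphur protein UQCRFS1. Small accessory subunits surround the core. The median change was -3.27 in WT and -1.02 in RLKO over the 8 subunits measured, and 1 fell by q. UQCRQ, a small accessory subunit, stood at 1345 and 152 FPKM in WT and at 1044 and 503 FPKM in RLKO, with q = 0.0447 in WT in the authors' deposited table and 7.39% of its spike-in-scaled level left in WT against 42.6% in RLKO. UQCRH, the hinge protein, had nearly the same fold: 503 and 60.0 FPKM in WT, 8.38-fold lower, and 380 and 165 FPKM in RLKO, but its q was 0.121 in the authors' deposited table. UQCR11, at 252 and 34.6 FPKM in WT and 171 and 109 FPKM in RLKO, had the lowest change in WT relative to RLKO, -2.62.

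The measured nuclear-encoded core members of complex III had WT changes nearer 0 than its 5 small subunits, which lay between -3.75 and -3.14. These core members were also less abundant, at 63.0 to 122 FPKM in untreated RLKO, against 171 to 1044 FPKM for the small subunits. The sets were not matched by level. UQCRC1 had a WT change of -1.54, from 113 to 58.4 FPKM, and stood at 95.3 and 126 FPKM in RLKO, where it was the only subunit above 0 on the spike-in scale, at 0.23. CYC1, from 147 to 60.8 FPKM in WT and 122 to 119 FPKM in RLKO, had changes of -1.87 and -0.21. UQCRFS1, from 87.5 to 21.9 FPKM in WT, had a change of -2.54. The small subunits UQCRB, from 658 to 93.8 FPKM, and UQCR10, from 231 to 39.1 FPKM in WT, had q = 0.0685 and 0.0806 in the authors' deposited table. UQCRC2 could not be compared, since its 4 values were 0.278, 0.051, 0.149 and 0.399 FPKM in untreated WT, treated WT, untreated RLKO and treated RLKO.

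CYCS, which encodes the cytochrome c that shuttles electrons between complexes III and IV and that triggers apoptosis when released, stood at 352 and 91.7 FPKM in WT and 306 and 130 FPKM in RLKO. Its changes were -2.54 in WT and -1.41 in RLKO, so that its line difference of -1.13 was the third nearest to 0, after those of ATP5MF and SDHA. It did not pass in either line, with q = 0.297 in WT in the authors' deposited table.

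In complex IV 3 of 11 subunits fell in WT by q, with a median change of -3.01 in WT and -1.06 in RLKO. COX5B, which carries a zinc site, stood at 425 and 64.1 FPKM in WT and at 321 and 174 FPKM in RLKO, and had the second-lowest q of all the subunits, 0.00944, in the authors' deposited table. COX8A stood at 681 and 126 FPKM in WT and at 476 and 369 FPKM in RLKO, with q = 0.0459 in WT, and COX7A2L, a factor of supercomplex assembly, at 197 and 45.6 FPKM in WT and 174 and 101 FPKM in RLKO, with q = 0.0389 in WT, both in the authors' deposited table. The line difference was -2.49 for COX8A and -1.74 for COX7A2L.

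The largest WT change in complex IV was not among the calls. COX7C, the most abundant subunit in untreated WT, had the largest change of the complex, -3.56 in WT, from 2120 to 275 FPKM, with p = 0.157 in the authors' deposited table; in RLKO it went from 1514 to 728 FPKM. COX6A1, at 246 and 49.2 FPKM in WT, had q = 0.603 in the authors' deposited table. COX5A, whose change was the smallest of the complex at -1.82, went from 202 to 86.8 FPKM in WT with q = 0.121 in the authors' deposited table, and stood at 147 and 138 FPKM in RLKO. COX4I1, COX6B1, COX6C, COX7A2 and COX7B stood between 586 and 1931 FPKM in untreated WT, with WT changes of -3.50 to -2.37 and q from 0.0628 to 0.135 in the authors' deposited table.

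Across the 39 subunits the median WT change was -2.95 for the 12 that fell and -3.01 for the 27 that did not pass. The last q inside the threshold was that of ATP5MC2, just under 0.05, and the first outside it that of ATP5ME, at 0.0538, in the authors' deposited table.

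Complex V had 7 of 15 subunits that fell in WT, with median changes of -2.86 in WT and -1.24 in RLKO. Its F1 head, where ATP is made, had 3 of 5 that fell and medians of -2.64 and -0.69. The beta subunit ATP5F1B, which holds the catalytic sites, stood at 1114 and 273 FPKM in WT and at 878 and 613 FPKM in RLKO, with the lowest q of all the subunits, 0.00847, in the authors' deposited table. The alpha subunit ATP5F1A stood at 257 and 72.7 FPKM in WT and 184 and 165 FPKM in RLKO, with q = 0.0145 in WT in the authors' deposited table. The alpha and beta subunits had 79.2% and 61.7% of their spike-in-scaled level left in RLKO, against 18.5% and 16% in WT.

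The gamma subunit ATP5F1C, the rotor's shaft, stood at 1085 and 152 FPKM in WT and at 896 and 415 FPKM in RLKO, with q = 0.0481 in WT in the authors' deposited table and the largest change of the head, -3.44. ATP5F1D, the delta subunit, had the smallest, -1.66, at 53.1 and 24.8 FPKM in WT and 42.8 and 34.4 FPKM in RLKO, with q = 0.25 in the authors' deposited table. In the stalk 2 of 4 fell in WT by q: ATP5PD stood at 701 and 93.1 FPKM in WT and at 526 and 235 FPKM in RLKO, with q = 0.0439, and ATP5PF, also called F6, at 203 and 46.0 FPKM in WT and 200 and 93.2 FPKM in RLKO, with q = 0.0359, in the authors' deposited table. ATP5PB, the peripheral stalk's b subunit, had the smallest stalk change, -2.62, with q = 0.169 in the authors' deposited table, at 237 and 58.2 FPKM in WT and 177 and 150 FPKM in RLKO. None of the 3 other membrane subunits passed, although ATP5ME had a 7.83-fold lower level in WT, at 1103 and 141 FPKM, and the largest change of all the subunits in RLKO, -1.63, at 819 and 299 FPKM. The smallest line difference was that of ATP5MF, which stood at 315 FPKM in treated WT and 322 FPKM in treated RLKO, from 881 and 695 FPKM before treatment. The remaining ATP5F1E, ATP5PO and ATP5MG, from 220 to 40.2, from 308 to 41.8 and from 1067 to 158 FPKM in WT, had q = 0.24, 0.304 and 0.211 in the authors' deposited table.

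**Figure D2:**
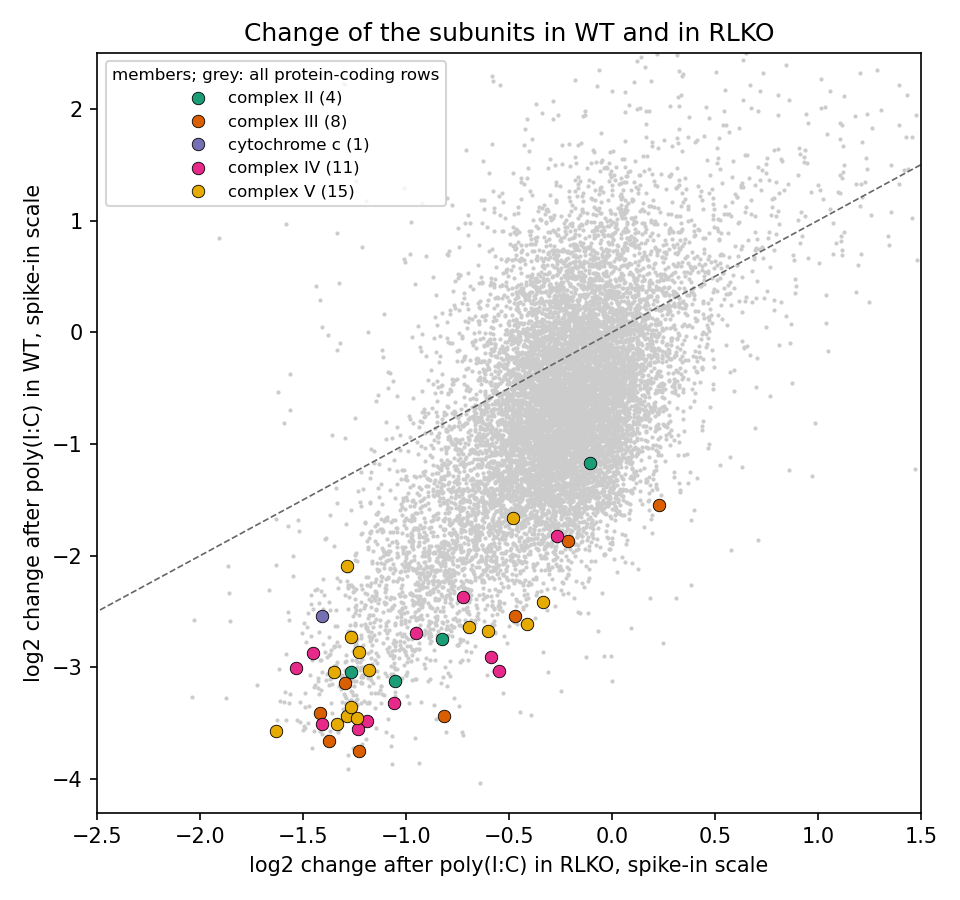
Each point is 1 gene, with the log2 change after poly(I:C) in RLKO across and in WT upwards, both on the spike-in scale, the members coloured by complex, all kept protein-coding rows in grey and the dashed line marking equal changes; the axes leave out grey points beyond their limits. All 39 subunits lie below the line, and their changes in the 2 lines had a Pearson r of 0.754.

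The 3 genes ATP5MC1, ATP5MC2 and ATP5MC3 encode the same c subunit of the membrane ring that turns as protons pass, and they allow a comparison of transcripts with a shared coding stretch. Their last 77 codons translate alike, yet the 231 bases were identical at 88.3% of positions between ATP5MC1 and ATP5MC2 and at 80.1% in both pairs with ATP5MC3. They are printed with TA and TT, the DNA form of the dinucleotides that RNase L is known to prefer, in capitals, from GENCODE v29 transcripts on GRCh38. The stretches lie at chr17:48895216-48895766 (+), chr12:53665317-53669266 (-) and chr2:175178291-175179175 (-), spans that include introns.
ATP5MC1: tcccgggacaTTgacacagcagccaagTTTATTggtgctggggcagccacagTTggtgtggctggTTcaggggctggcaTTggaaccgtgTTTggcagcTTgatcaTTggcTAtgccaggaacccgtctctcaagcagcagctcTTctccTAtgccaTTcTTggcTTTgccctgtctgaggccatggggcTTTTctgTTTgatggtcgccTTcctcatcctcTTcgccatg
ATP5MC2: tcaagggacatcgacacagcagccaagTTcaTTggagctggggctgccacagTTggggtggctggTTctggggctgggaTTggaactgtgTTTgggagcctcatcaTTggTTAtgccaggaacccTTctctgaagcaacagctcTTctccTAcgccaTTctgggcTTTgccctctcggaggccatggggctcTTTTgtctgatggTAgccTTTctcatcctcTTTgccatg
ATP5MC3: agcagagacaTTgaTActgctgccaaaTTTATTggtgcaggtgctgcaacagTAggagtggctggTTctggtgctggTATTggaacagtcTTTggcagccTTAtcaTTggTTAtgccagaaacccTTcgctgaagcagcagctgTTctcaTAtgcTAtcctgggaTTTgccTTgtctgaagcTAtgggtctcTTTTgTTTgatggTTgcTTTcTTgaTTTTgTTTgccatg
Counting overlapping positions, ATP5MC1 holds 26 of these dinucleotides in the stretch, ATP5MC2 24 and ATP5MC3 39. ATP5MC1 stood at 863 and 160 FPKM in WT and at 751 and 333 FPKM in RLKO, with q = 0.207 in WT in the authors' deposited table. ATP5MC2 stood at 392 and 81.4 FPKM in WT and at 351 and 169 FPKM in RLKO. ATP5MC3 stood at 345 and 81.7 FPKM in WT and at 212 and 158 FPKM in RLKO, with q = 0.0454 in WT in the authors' deposited table. The gene with the most of these dinucleotides had the smallest WT change of the 3, -2.67 against -3.04 and -2.86, but also the smallest RLKO change, -0.60 against -1.35 and -1.23, so that the line difference was the most negative for ATP5MC3, at -2.07, against -1.69 and -1.63. These are 3 genes with no replicate values, and no relation can be read from them.

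Over the whole transcript the subunits held a median TA plus TT content of 11.9%, against 11.2% in other protein-coding transcripts. Among the 39 subunits this content had a Spearman rho of -0.18 with the line difference, and among 12045 other genes a rho of -0.13. The subunits' transcripts were short: their median length was 1179 bases against 3044, their median coding length 387 against 1377, and 61.5% were under 1500 bases against 14.6%. Length was taken from the GENCODE principal transcript, since the deposited length equalled the longest annotated transcript for 40 of 40 subunits and the principal one for 21 of 39.

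The subunits also share long listed half-lives. The table carries mRNA half-lives that the authors took from another study, with a highest value of 24, read here as hours. Of the 38 subunits with a value, 28 (73.7%) stood at that maximum, against 6.86% of 9489 other protein-coding genes, whose median was 4. Across those other genes the listed half-life had a Spearman rho of -0.50 with the WT change and -0.52 with the line difference; within the 38 subunits, most of them at the maximum, the values were -0.16 and -0.09. The median WT change of other genes was -0.27 under 3 h, -0.69 from 3 to 6 h, -1.08 from 6 to 12 h, -1.41 from 12 to 24 h and -1.74 at the 24 h maximum, and the subunits at the maximum had a median of -3.02. Among genes both at the maximum and at 100 FPKM or more in untreated RLKO, 284 other genes had a median of -2.37 in WT and -0.79 in RLKO, and the 27 subunits had medians of -3.03 and -1.24. COX6C had the shortest listed half-life, 3.85 h, and a WT change of -3.48, beside SDHA at 14.4 h and -1.17.

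**Figure D3:**
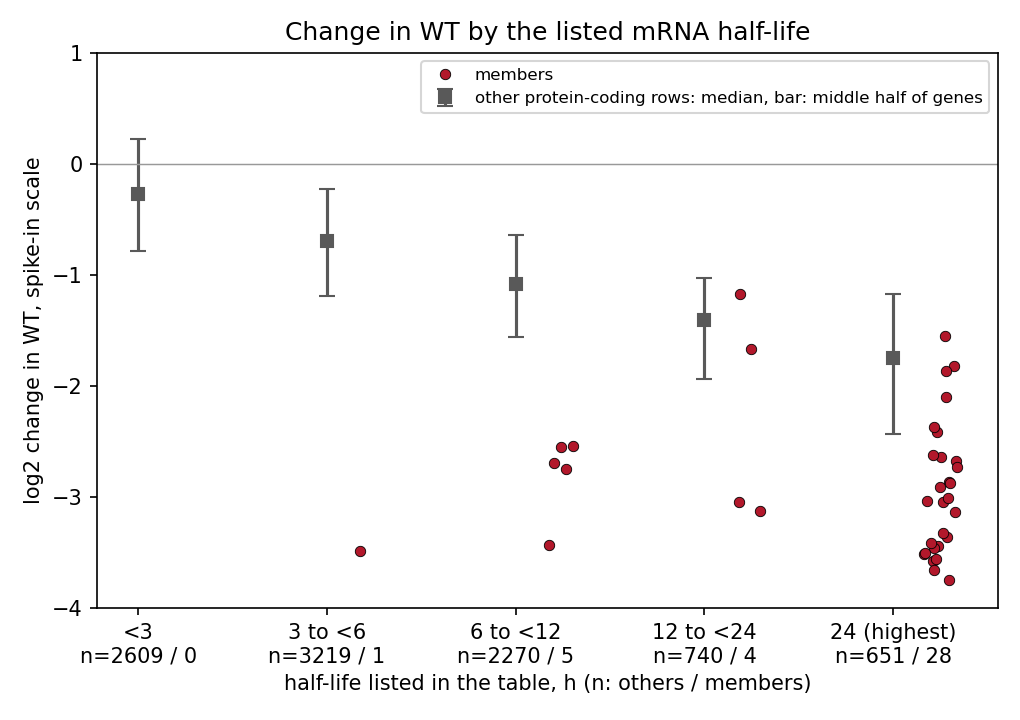
Log2 change in WT on the spike-in scale against the half-life listed in the table; grey squares are medians of other protein-coding rows with bars over the middle range of genes, and red points are single subunits, spread sideways for sight. The 28 subunits in the last class have a median of -3.02, and the other genes there have -1.74.

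Because the subunits are abundant, their changes were set beside those of other genes at like levels, ordered by FPKM in untreated RLKO, a value that the RLKO changes share. Between 30 and 100 FPKM the median WT change was -1.25 for 2391 other genes, of which 4.56% fell, and -2.10 for 6 subunits, of which 0 fell. Between 100 and 300 FPKM the median WT change was -1.90 for 824 other genes and -2.72 for 13 subunits; 14.0% of the others fell, and 5 of the 13 subunits. Between 300 and 1000 FPKM it was -2.21 for 257 other genes, of which 12.8% fell, and -3.34 for 16 subunits, of which 6 fell. At 1000 FPKM or more it was -2.82 for 104 other genes, of which 12.5% fell, and -3.28 for the 4 subunits COX6B1, COX7B, COX7C and UQCRQ, of which 1 fell; only 2 of these 4 lay below the others' median line difference. Of the 39 subunits 35 lay below the median of others in their range in WT and 28 in RLKO, and 35 had a lower line difference. At 300 to 1000 FPKM and under 1500 bases the median of 119 others was -2.57, against -3.44 for 11 subunits, and above that length it was -1.89 for 137 others and -2.86 for 5 subunits. At 1000 FPKM or more the others had -2.78 under 1500 bases and -2.85 above.

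**Figure D4:**
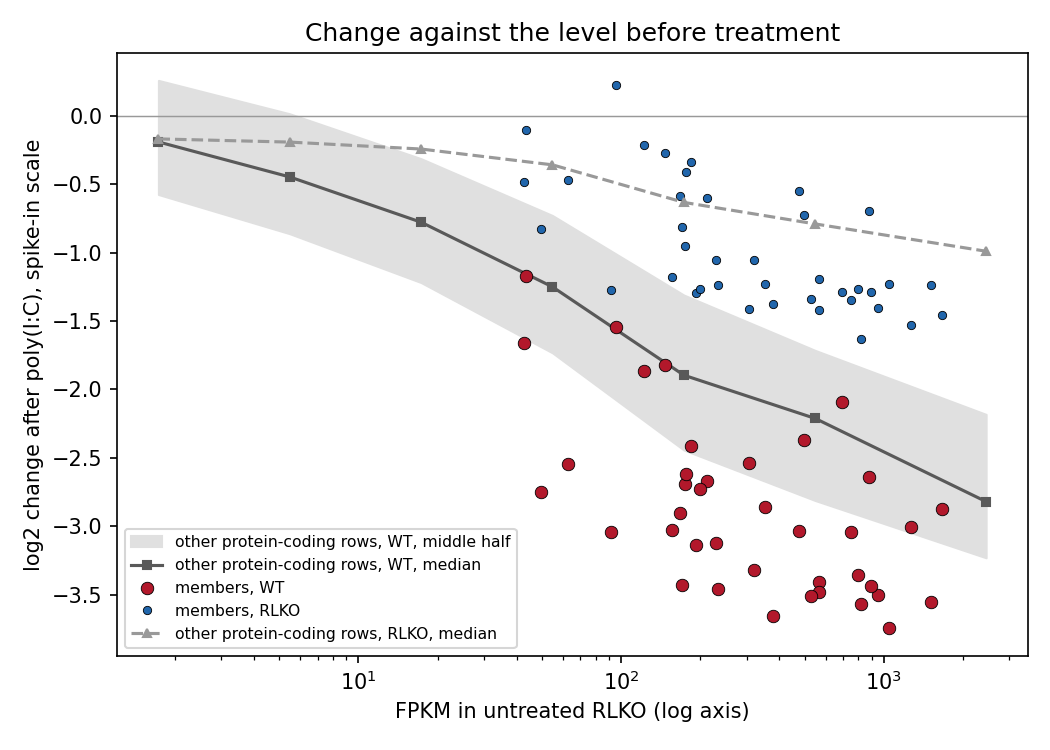
Log2 change on the spike-in scale against FPKM in untreated RLKO on a log axis; red and blue points are subunits in WT and RLKO, the grey lines are medians of other protein-coding rows by level range, and the band is the middle range of those rows in WT. The solid line joins the WT medians of the ranges, so a point's place against the line can differ from its place against its own range's median. Counted by range, 35 of the 39 subunits lay below the WT median of the others.

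Because many of these genes have processed pseudogenes, reads of near-identical copies may be shared between rows, and values of subunits with abundant copies are uncertain. The table held 145 rows named after subunits, of which 60 were kept, belonging to 24 of them. The 15 copies at 10 FPKM or more in untreated WT were chosen by the baseline of the WT change, so their counts are a description: all 15 were lower after poly(I:C), 11 fell in WT by q and 0 in RLKO, with median changes of -3.01 and -1.27. UQCRHL, a protein-coding row, is among the 15 and among the 11 that fell, and the rest of the 15 are processed pseudogenes. Of 789 processed pseudogene rows outside the copies and past the same level, 97.8% were lower and 35.4% fell, with medians of -2.20 and -0.73. Chosen by 10 FPKM or more in untreated RLKO instead, 10 of 17 copies fell in WT, against 34.1% of 801 processed pseudogene rows outside the copies. These 17 included UQCRHL, which fell, and SDHAP1, an unprocessed pseudogene, which did not pass. Over all kept copies 13 fell, 12 of them of the processed pseudogene class, in which 11.3% of 3086 kept rows fell. ATP5F1EP2, a copy of the epsilon subunit gene, stood at 3280 and 590 FPKM in WT with q = 0.0018 in the authors' deposited table, far above ATP5F1E itself, at 220 and 40.2 FPKM. COX6A1P2, at 513 and 136 FPKM, likewise exceeded COX6A1, and COX7CP1, at 1973 and 295 FPKM, nearly equalled COX7C. The 12 subunits whose copies summed to at least 10% of their own level had a median WT change of -3.04, with 3 that fell; the 27 others had -2.87, with 9 that fell.

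**Figure D5:**
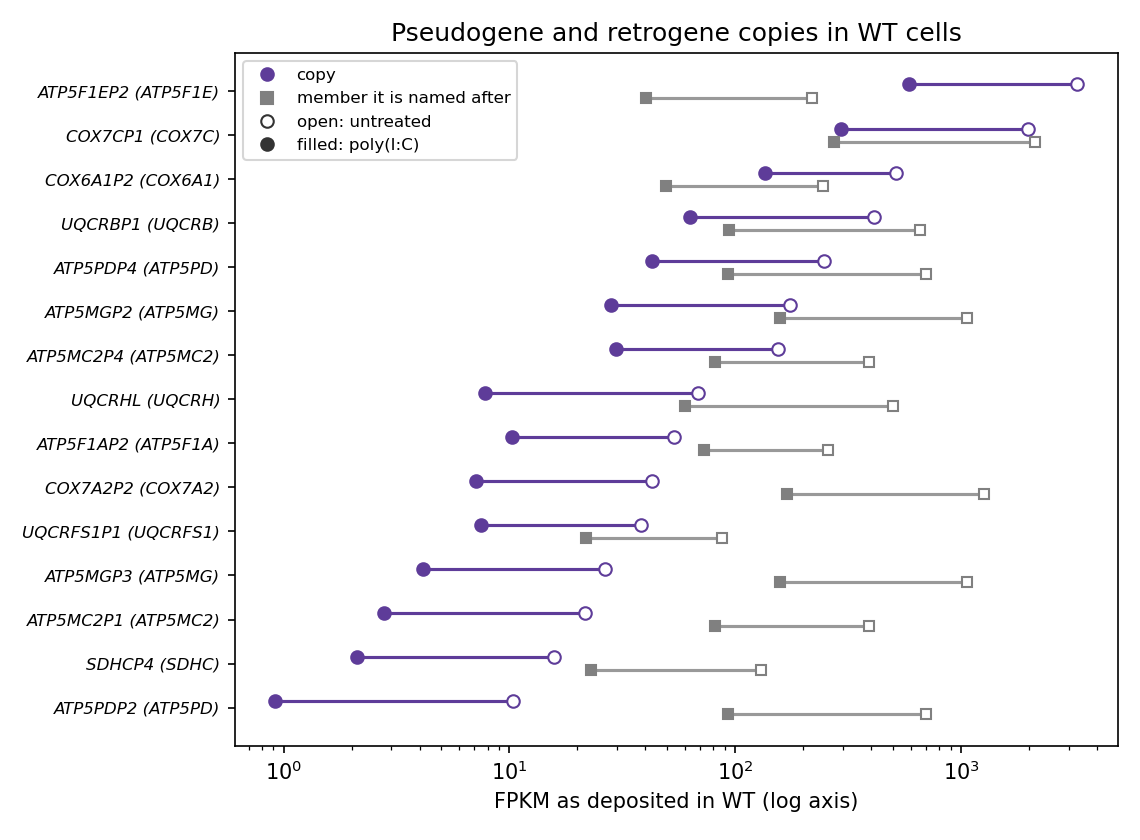
FPKM in WT on a log axis for the 15 copies at 10 FPKM or more (purple circles) and for the subunits they are named after (grey squares), open symbols untreated and filled symbols after poly(I:C). All 15 copies and their parents were lower after treatment, and in untreated WT 2 copies, of ATP5F1E and COX6A1, stood above their parents, joined after treatment by COX7CP1.

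Transcripts of the proteins that assemble the complexes had a median change nearer 0 than those of the subunits, but the assembly transcripts were also less abundant. Their median level in untreated RLKO was 35.2 FPKM, against 306 FPKM for the subunits. WT changes of other genes were nearer 0 at lower levels, and these lists were not matched by level. Of the 38 assembly-factor rows measured, from 37 genes, 4 fell in WT and 0 rose by q, with a median change of -1.57 in WT and -0.49 in RLKO. COX14 went from 139 to 20.2 FPKM in WT and COX17, the copper chaperone, from 205 to 37.6 FPKM. COA3 went from 142 to 34.4 FPKM and CMC2 from 229 to 39.2 FPKM. The q of these 4 in the authors' deposited table were 0.0285, 0.0174, 0.00319 and 0.0371. All 4 are factors of complex IV, as are most genes on the assembly list. Of 5 further subunits or regulators outside the 40, NDUFA4, now placed in complex IV, went from 351 to 52.0 FPKM and ATP5MPL, of complex V, from 681 to 92.3 FPKM, and both fell, with q = 0.0112 and 0.0318 in the authors' deposited table.

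Of the mitochondrially encoded partners 2 could be measured, and both had higher FPKM in treated than in untreated WT. MT-CYB, the cytochrome b of complex III, stood at 2188 and 5685 FPKM in WT and at 3028 and 1474 FPKM in RLKO, and MT-CO2, a catalytic subunit of complex IV, at 15783 and 18682 FPKM in WT and at 17302 and 6621 FPKM in RLKO. On the spike-in scale their WT changes were 0.76 and -0.37 and their RLKO changes -1.22 and -1.56. Neither passed, with q = 0.494 and 0.912 in WT in the authors' deposited table. The other 4 partners, among them MT-CO1 and MT-ATP6, carried failed estimates and were not used.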

How the data were processed

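Total RNA of 12 A549 samples, 3 in each of 4 groups, was measured. Per the submitters' processing notes, Cuffdiff 2.2.1, TopHat2 2.0.6, Bowtie2 2.0.2, Trimmomatic 0.32, FastQC and the build GRCh38.p12 were used; settings are not given in the sources used here. Per the file headers the authors deposited 1 FPKM per gene and group, pooled over samples, with p-values and q-values of poly(I:C) against untreated cells. Read depth is unknown. Half-life, lengths and GC percent are further columns of the authors' deposited table.

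From 58763 rows, 86 with failed estimates and 90 with repeated identifiers were dropped, and rows with at least 1 FPKM in some group were kept (22087). Groups were divided by the median ratio over the 49 ERCC rows that averaged 1 FPKM or more; log2 changes took a pseudocount of 1, which understates changes of low genes. Tests planned across samples were replaced by the authors' q under 0.05, since no single-sample values were used; contrasts between lines have no test. Members and lists were chosen with earlier results of these data known, and motifs and thresholds for pseudogene copies were set with values in view. Values in every group are given for each subunit with q under 0.05, the lowest and highest WT change of each subunit group, the c subunit genes and CYCS, with others as examples chosen after their values were seen. Whether samples came from separate cultures is not stated beyond independence. Alternatives covered the pseudocount, spike-in use, thresholds and pseudogene copies. Scripts ran in Python 3.11.15, and only the scaling and the median changes were tested on simulated data. Gene classes came from GENCODE 29. One further item is not reported here.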

Additional observations from a re-analysis of the deposited data

How the results depend on the processing

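Pooled values per group leave the spread between samples, and so any precision of these changes, unknown. No paired analysis was possible because the columns are pooled over samples and carry no replicate numbers; for the same reason no replicate could be left out. The number of subunits that fell in WT was 20 at q under 0.1 and 32 at an unadjusted p under 0.05, beside 12. It was 10 with p adjusted over kept rows only. Of the 12181 kept protein-coding rows, 693 fell in WT at q under 0.1 and 1478 at an unadjusted p under 0.05, beside 376. With p adjusted over kept rows 355 of them fell. In RLKO the number of subunits was 8 at an unadjusted p under 0.05, beside 226 protein-coding rows, and 0 under the other rules. With FPKM as deposited the medians were -2.39 in WT, -1.01 in RLKO, -1.51 for the difference between lines and 0.37 for untreated WT against RLKO. Scaling to protein-coding rows gave -2.18, -0.89 and -1.44. Subunits with few pseudogene copies, an alternative chosen after seeing the data, gave -2.87 in WT and -1.06 in RLKO. Every median kept its sign under the alternatives run, and the count of subunits with a lower change in WT than in RLKO remained 39 of 39 under each setting that used all subunits. Scaling to protein-coding rows left 35 of 39 below 0 in RLKO, against 38.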

Other observations

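UQCRC2 lay within 18 consecutive protein-coding genes on chromosome 16, from 21197450 to 22916338 on GRCh38, that were all under 1 FPKM in every group. The highest value among them was 0.399 FPKM, for UQCRC2 itself. METTL9, a methyltransferase gene, reached 0.0572 FPKM, POLR3E, a subunit of RNA polymerase III, 0.141 FPKM, and EEF2K, the kinase of elongation factor 2, 0.00486 FPKM. The nearest genes on each side, TMEM159 and USP31, reached 6.57 and 6.97 FPKM. The cause of this stretch of low values was not tested. SURF1, an assembly factor of complex IV, and ATP5IF1, the inhibitor of ATP synthase, are also listed at 0 in all 4 groups.

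Tissue isoforms of complex IV were scarce. COX7A1, the muscle isoform of subunit 7A, stood at 1.34 and 5.19 FPKM in WT and at 3.63 and 0.641 FPKM in RLKO; it rose in WT and fell in RLKO, with q = 0.0481 and 0.0200 in the authors' deposited table, the difference itself being untested. COX6B2, a testis isoform, stood at 0.878 and 6.45 FPKM in WT and did not pass. COX4I2, COX6A2, COX7B2 and COX8C stayed under 1 FPKM. The intronless copy UQCRHL, at 68.5 and 7.78 FPKM in WT, fell with q = 0.0018 in the authors' deposited table. ATP4A, a gastric proton pump that is no respiratory subunit, was on the same list and rose in WT from 0.153 to 5.76 FPKM, with q = 0.0018 in the authors' deposited table.

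Among the 45 kept pseudogene copies under 10 FPKM in untreated WT the median change was 0.18 on the spike-in scale, on which 26 lay above 0; in FPKM as deposited 31 were higher after treatment. By q, 2 fell and 3 rose. The 3 that rose, UQCRBP2, COX6CP7 and COX6B1P6, are listed at 0 in untreated WT, so no fold is given.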
